A study of Mus musculus with 3 samples.

Results

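The T cell receptor genes are the gene segments from which T cells build their antigen receptor. They were taken as all genes with at least 1 transcript that GENCODE M21 classes as a T cell receptor segment, 270 of the 55536 genes in the tables. Of these, 144 were variable (V) genes, 4 diversity (D) genes, 70 joining (J) genes and 8 constant (C) genes, beside 34 V and 10 J pseudogenes. By chain, 191 belonged to alpha, 53 to beta, 15 to gamma and 11 to delta. Total RNA-seq was recorded from monocytes of the peripheral blood of C57BL/6J mice aged 5 to 6 weeks, in 3 libraries that the labels number as biological replicates of 1 group, with no treatment and no genotype beyond the strain named. How the monocytes were gated is not stated in the labels. All 3 carry the same donor record and their sex was not collected, so p-values rest on variation among these libraries only, and part of it may be technical. Each library was made from 100 ng of RNA depleted of ribosomal RNA, with fragments of 200 to 594 bp in library 1, 200 to 491 bp in library 2 and 200 to 1000 bp in library 3. Fewer cells of a type and less RNA per cell cannot be told apart in such bulk libraries.

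A T cell makes its receptor by V(D)J recombination, in which the Rag1 and Rag2 recombinase joins a V, sometimes a D, and a J segment, and splicing then joins the rearranged segment to a constant exon. A mature receptor mRNA therefore carries 1 V and 1 C segment. Alpha pairs with beta and gamma with delta, and the pair reaches the cell surface only with the CD3 chains. Constant genes, and V genes before recombination, can also be transcribed from the unrearranged locus.

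The libraries held 27.2, 26.5 and 19.9 M expected counts, the estimated number of reads per gene. Levels are in TPM, a relative abundance per transcript length, and 1 TPM as deposited corresponds to 9.16, 10.2 and 9.34 TPM when only protein-coding and receptor genes share the total. The labelled cell type was checked against 16 monocyte markers, all of which lay above 1 TPM (Lyz2, Ctss and Tyrobp were the highest); their summed level was 2810, 2380 and 1686 TPM in libraries 1, 2 and 3. All 14 markers of natural killer (NK) cells also lay above 1 TPM, with sums of 854, 739 and 2146 TPM, highest in library 3 for 14 of 14. The sums of 16 T cell markers were between 12.2 TPM in library 1 and 19.8 TPM in library 3. Of these T cell markers, 4 passed the test above 1 TPM and 3 below it, and 9 did not pass. Above 1 TPM were also 10 of 12 B cell, 2 of 10 neutrophil, 4 of 8 platelet and 5 of 8 erythroid markers. Beside these counts, 43.2% of all genes tested lay above 1 TPM and 6.36% below. B cell markers summed to 59.9, 66.1 and 56.6 TPM, neutrophil markers to 142, 128 and 9.66, platelet markers to 15.4, 11.6 and 101, and erythroid markers to 3535, 3328 and 263 TPM. Retnlg alone gave 124.45, 114.09 and 0 TPM of the neutrophil sums, while the neutrophil markers Ly6g and Camp were at 0 in every library. Library 3 stood apart from libraries 1 and 2 in these lists, and results are given with and without it where it changes them.

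The receptor sequences the results turn on are given from the GENCODE M21 transcripts, on the plus strand of mm10. They are shown first because the D and J segments are shorter than any fragment in these libraries. The beta D segments and the delta D segment Trdd2 are shown whole.
Trbd1 (chr6:41533201-41533212): gggacagggggc
Trbd2 (chr6:41542163-41542176): gggactgggggggc
Trdd2 (chr14:54122226-54122241): atcggagggatacgag
Beta J segments follow, with a stretch of TTNGG, any 4 bases and GGN in capitals, which encodes the phenylalanine-glycine motif that ends the antigen-binding loop.
Trbj1-1 (chr6:41533864-41533911): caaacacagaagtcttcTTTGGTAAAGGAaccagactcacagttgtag
Trbj1-2 (chr6:41534001-41534048): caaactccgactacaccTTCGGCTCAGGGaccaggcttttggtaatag
Trbj1-3 (chr6:41534323-41534372): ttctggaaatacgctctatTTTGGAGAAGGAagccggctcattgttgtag
Trbj1-4 (chr6:41534811-41534861): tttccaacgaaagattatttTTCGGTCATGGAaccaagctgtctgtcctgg
Trbj1-7 (chr6:41535642-41535687): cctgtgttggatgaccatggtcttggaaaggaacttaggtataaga
Trbj2-1 (chr6:41542754-41542803): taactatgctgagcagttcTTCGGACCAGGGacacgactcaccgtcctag
Searched on the transcript strand, 57 of 70 J genes (81.4%) hold this stretch, 11 of 13 in beta. Trbj1-7 and Trbj1-6 are the beta J genes in which these letters were not found.

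The last 60 bases of 3 delta V genes are shown because 2 of them carried most of the variable counts. Capitals mark TANTNNTGT, in which TGT encodes the conserved cysteine at the start of the antigen-binding loop; 97 of 144 V genes (67.4%) hold these letters in their last 40 bases, searched on the transcript strand.
Trdv4 (chr14:54075456-54075515): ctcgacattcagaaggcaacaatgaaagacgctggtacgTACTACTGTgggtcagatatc
Trdv2-2 (chr14:53961543-53961602): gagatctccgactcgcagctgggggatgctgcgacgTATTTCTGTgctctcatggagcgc
Trdv2-1 (chr14:53946601-53946660): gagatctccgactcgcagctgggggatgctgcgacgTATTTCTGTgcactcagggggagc
Trdv2-1 and Trdv2-2 differ at 4 of these 60 bases and at 29 of the 348 bases they could be compared over without gaps, 91.7% identity. Reads from stretches they share could therefore be given to either gene. How far this affected their counts was not tested.

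The 2 beta constant genes are near copies of each other. Exon 1 differs at 1 of 375 bases and exon 3, which is wholly coding, at 15 of 107. Exon 3 is shown with the differing bases in capitals, since it is the coding exon in which the 2 genes differ at the most bases.
Trbc1 (chr6:41539229-41539335): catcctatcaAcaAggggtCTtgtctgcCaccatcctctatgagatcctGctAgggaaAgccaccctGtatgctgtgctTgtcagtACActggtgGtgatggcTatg
Trbc2 (chr6:41547772-41547878): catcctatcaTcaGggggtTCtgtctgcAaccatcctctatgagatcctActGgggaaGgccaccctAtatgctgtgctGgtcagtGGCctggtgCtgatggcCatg

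Among measurable genes and in TPM, receptor RNA in these libraries was concentrated in 2 beta constant genes and 2 delta variable genes. In counts, Trdc, with 267, 134 and 531, exceeded the delta variable gene Trdv2-2, with 52, 35 and 75. Only 31 of the 270 genes had any count in the gene tables, and 84 (every D and J gene and J pseudogene) had an effective length of 0 there, so no count could be given to them. Of the 186 measurable genes the median level was 0 TPM in each library. The filter of 10 summed counts left 14 genes, 7 constant and 7 variable. Of these, 4 lay above 1 TPM (edgeR quasi-likelihood test, adjusted over 17664 genes) and 10 on neither side. Neither side means here and below that the test called no direction, wherever the values lie. Over all genes tested, 43.2% lay above 1 TPM and 6.36% below, and the median level was 1.06, 0.96 and 1.41 TPM. No receptor gene passed the test below 1 TPM by edgeR, 0 at an unadjusted p under 0.05 and 0 by DESeq2, against 8 by limma. The values of Tcrg-C1, Tcrg-C2 and Tcrg-C4 were nonetheless at most 0.21 TPM in any library. Without library 3, Trdc lay below (edgeR adjusted p = 0.0478). On the scale of protein-coding and receptor genes, Trac and Trdc joined the genes above, making 6, while 12092 of all genes lay above and 1 below.

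Constant genes, which encode the part of each chain next to the membrane, had counts for 7 of 8 genes. Trbc1, a constant segment of the beta chain (ENSMUSG00000076490.6, chr6:41538218-41539881), had 12.74, 15.28 and 39.58 TPM in libraries 1, 2 and 3, from 803, 1067 and 1657 expected counts. Library 3 held the highest level, and all 3 lay above 1 TPM (22.5 TPM ± 14.8, SD, n = 3; edgeR adjusted p = 2.34e-09). Its mean without library 3 was 14.01 TPM. Trbc2, the other beta constant segment (ENSMUSG00000076498.2, chr6:41546730-41548352), had 5.31, 5.87 and 6.65 TPM, a narrow range that lay above 1 TPM in every library (edgeR adjusted p = 1.23e-06). Trbc1 thus exceeded Trbc2 in 3 of 3 libraries, by 2.40, 2.60 and 5.95 times in TPM. Its share of the beta constant counts was 72.3% (95% Wilson interval 69.6 to 74.8), 73.8% (71.5 to 76.0) and 86.6% (85.0 to 88.1). The intervals, which cover counting error only, overlap between libraries 1 and 2, and that of library 3 lies apart. The authors' deposited posterior SD of the Trbc1 count was 2.71, 2.80 and 4.55 counts.

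Trdc, the delta constant gene (ENSMUSG00000104876.1, chr14:54142851-54148868), had 0.64, 0.30 and 1.90 TPM from 267, 134 and 531 counts. Its library values spanned 1 TPM, with library 3 alone above it (edgeR adjusted p = 0.872). The Trdc transcript has 3865 bases, of which 458 are coding, so most of its length is untranslated. Trac, the alpha constant gene (ENSMUSG00000076928.5, chr14:54220521-54224206), had 0.81, 0.52 and 1.14 TPM from 25, 16 and 33 counts (edgeR adjusted p = 0.784). Its levels in TPM overlapped those of Trdc, while its counts were lower than those of Trdc in every library. The difference between the 2 genes was not tested.

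The gamma constant genes were near the limit of detection. Tcrg-C4 (chr13:19344558-19352756) had 0, 12 and 13 counts. Tcrg-C2 (chr13:19304649-19307551) had 11, 0 and 8 counts, and Tcrg-C1 (chr13:19214103-19217024) had counts, 12, in library 3 alone. Tcrg-C3 (chr13:19260884-19263528) had none in any library, which allows up to 0.0654, 0.0586 and 0.0993 TPM. Summed by chain, constant genes reached 28.5 TPM ± 15.5 in beta, 0.947 ± 0.843 in delta, 0.823 ± 0.310 in alpha and 0.270 ± 0.251 in gamma (SD, n = 3 each). Beta was first in every library and held 92.0%, 95.7% and 92.8% of constant TPM. The other 3 chains overlap in their spread, though gamma was last in every library, at 0.13, 0.12 and 0.56 TPM. In counts, not scaled by length, beta had 1111, 1445 and 1913 and delta 267, 134 and 531. Alpha had 25, 16 and 33 counts and gamma 11, 12 and 33. Without library 3 the means were 19.6 TPM in beta, 0.665 in alpha, 0.470 in delta and 0.125 in gamma, so alpha then stood above delta.

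**Figure D1:**
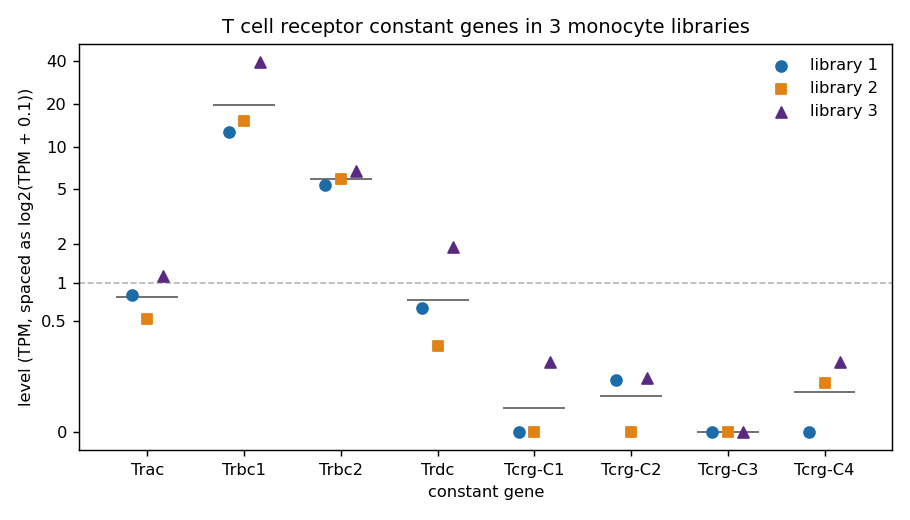
Level of each constant gene in libraries 1, 2 and 3, in TPM spaced as log2(TPM + 0.1); points are libraries, short bars the mean on that scale and the dashed line 1 TPM. Trbc1 and Trbc2 lie above the line in every library, and the highest point of Trbc1, 39.58 TPM, is library 3.

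Variable genes encode the antigen-binding end of a chain, and 24 of 144 had counts. Trdv4, a delta variable gene (ENSMUSG00000076867.2, chr14:54074905-54075515), had 12.91, 6.98 and 41.84 TPM from 390, 239 and 821 counts. It lay above 1 TPM in every library, with library 3 the highest (edgeR adjusted p = 5.25e-08). Its mean was 20.6 TPM, and 9.94 TPM without library 3. Trdv2-2, another delta variable gene (ENSMUSG00000076866.3, chr14:53960944-53961602), had 2.08, 1.22 and 4.66 TPM from 52, 35 and 75 counts. Its call was close to the threshold (edgeR adjusted p = 0.0453) and was lost without library 1 (0.0803), without library 3 (0.460), under GENCODE M4 (0.506), with DESeq2 (0.200) and with genes of 1 or more counts included (0.0520). Together these 2 genes held 94.6%, 94.5% and 92.4% of all variable counts. They were the only V genes with counts in all 3 libraries.

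The 2 genes lie upstream of the delta D segments on the same strand. Of 135 V genes and pseudogenes upstream, Trdv4 is the nearest to Trdd1, 37953 bp away, and Trdv2-2 the fourth, 151866 bp away. The genes between them (the pseudogene Trdv3 and the alpha gene Trav23) had no counts, nor had Trdv2-1, which follows Trdv2-2. The span of the antisense gene Gm30275 covers Trdv4, and Gm30275 had 0 counts in every library. No source used here states whether the counting used strand, and whether exons of the 2 genes overlap was not examined. Without strand, reads from any exon bases they share could not be told apart. Gm43434, antisense over Trdc, was also at 0.

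Beta had 10 of 22 variable genes with counts, and their sums were 19, 14 and 47 counts in libraries 1, 2 and 3. Trbv16 had 6, 0 and 15 counts, Trbv30 0, 0 and 13, Trbv2 13, 0 and 0, and Trbv12-1 0, 3 and 7. No beta V gene had counts in every library, and none of these 4 passed the test in either direction (edgeR adjusted p from 0.345 to 0.623). Gamma had counts for 3 of 7 variable genes, led by Trgv2 with 0, 0 and 10. In alpha, 8 of 110 variable genes had counts, at most 4 in any gene, and their sums were 0, 2 and 10 counts. Several alpha V genes are near copies from a duplicated region (names with d or n), and Trav15d-2-dv6d-2 and Trav15n-2 carried 0.5 counts each in library 3. Of the 24 variable genes with counts, 14 had them in library 3 alone. A V gene at 0 in library 3 may still have had up to 0.0965 to 0.339 TPM, the limits that a count of 0 allows for the 125 such genes, and in library 1 up to 0.0636 to 0.211. The 34 V pseudogenes, 3 of which the rule would have named, were all at 0 counts.

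**Figure D2:**
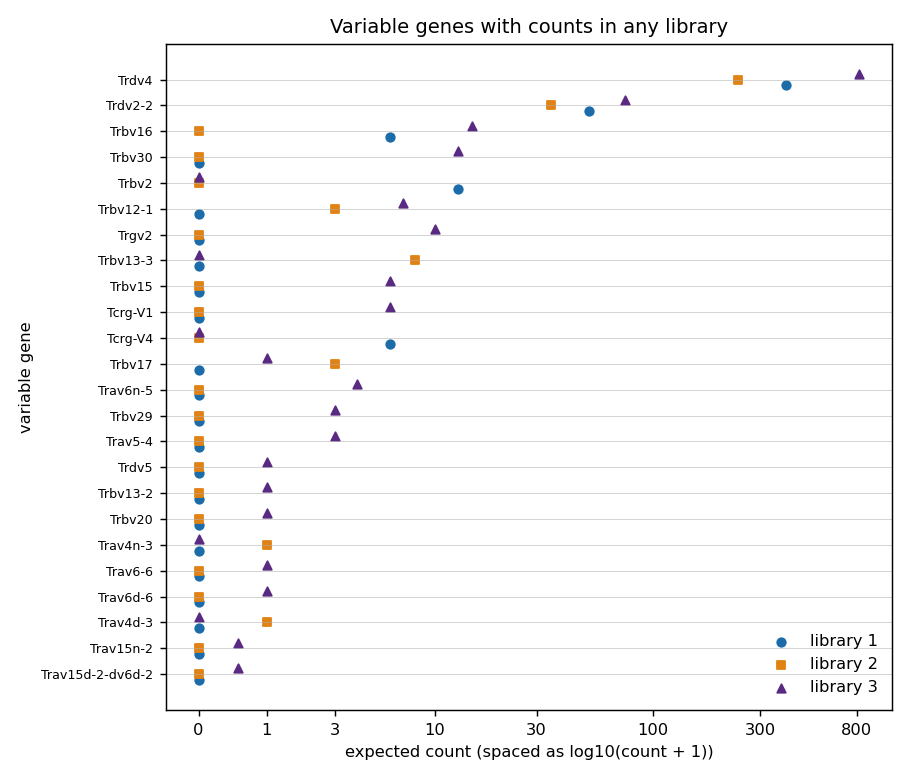
Expected counts (spaced as log10(count + 1)) of the 24 variable genes with counts in any library, 1 row a gene and 1 point a library. Trdv4 (239 to 821 counts) and Trdv2-2 (35 to 75) stand to the right of the other genes, none of which exceeds 15 counts in a library.

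The comparison of constant with variable segments asked whether each chain showed both at like levels. Beta constant genes were far above beta variable genes in every library: 18.05 against 0.54 TPM, 21.15 against 0.60 and 46.23 against 3.43. The mean difference was 4.49 ± 0.67 on the log2(summed TPM + 0.1) scale (SD, n = 3), 22.4 times. Delta went the other way, with Trdc at 0.64, 0.30 and 1.90 TPM against 14.99, 8.20 and 46.55 TPM for its V genes. The mean difference was -4.42 ± 0.11 (SD, n = 3), so delta variable genes were 21.5 times higher than Trdc in TPM. In counts the gap was smaller, with 442, 274 and 897 for delta V genes against 267, 134 and 531 for Trdc. The TPM of Trdc is scaled by a transcript of 3865 bases, of which 458 are coding. Trdv4 and Trdv2-2 made up nearly all of the delta variable sum. Alpha had constant above variable in 3 of 3 libraries, 0.81 against 0, 0.52 against 0.10 and 1.14 against 0.81 TPM (1.76 ± 1.37, SD, n = 3), at counts too low for a firm size. In the kallisto-format tables library 2 turned, with 1.09 TPM of constant against 3.58 TPM of variable genes. Gamma showed no direction, with a difference of 0.06 ± 0.93 (SD, n = 3) and constant higher in 1 of 3 libraries. Over all chains the sums were 19.63 against 15.74, 22.09 against 8.90 and 49.83 against 51.64 TPM, a difference of 0.52 ± 0.70 (SD, n = 3), smaller than its spread.

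The signs of the 3 library differences were flipped in an exact two-sided permutation test, whose smallest possible p is 0.25. This exact test gave p = 0.25 for alpha, beta and delta (adjusted over 5 comparisons, 0.417). It gave exact p-values of 0.5 over all chains and 1 in gamma. The size in beta and delta was several times the spread between libraries, but the design cannot pass a threshold. The direction in beta and in delta was the same in 3 of 3 libraries and under each alternative run (3.61 to 5.21 in beta, -4.95 to -3.38 in delta). Among these, adding the V pseudogenes could not change a value, since all 34 were at 0 counts. Each alternative scaled genes by their annotated transcripts, so dependence on the length of Trdc was not tested.

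**Figure D3:**
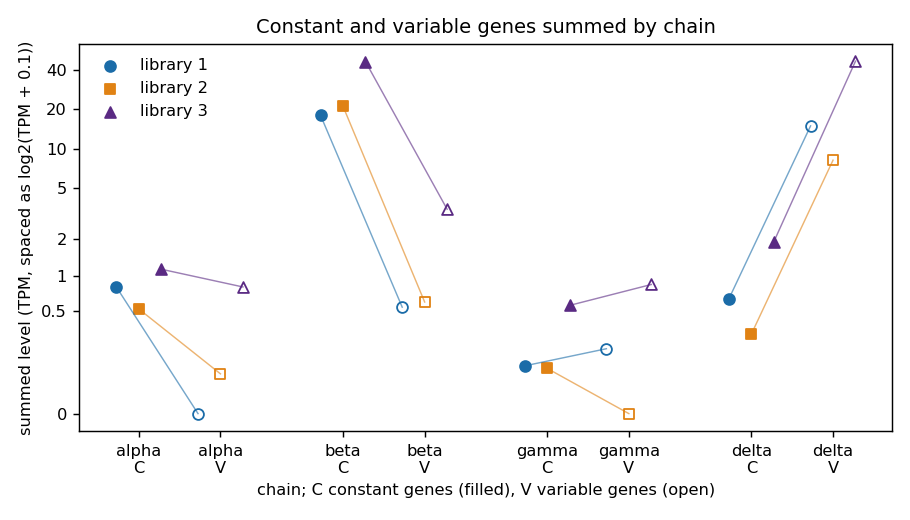
Summed level of constant (filled) and variable (open) genes of each chain in libraries 1, 2 and 3, in TPM spaced as log2(TPM + 0.1), with a line joining the 2 sums of a library. The lines fall steeply in beta (18.05 to 0.54 TPM in library 1) and rise steeply in delta (0.64 to 14.99 TPM in library 1).

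The immunoglobulin genes, the antigen receptor genes of B cells, gave a reference within the same libraries. It was added after the values were seen. Kappa constant and variable genes had 175 against 84.0, 160 against 96.0 and 257 against 174 TPM, a difference of 0.79 ± 0.25 (log2, SD, n = 3). In the heavy chain the difference was -0.03 ± 0.27, and in lambda 1.90 ± 0.41, with constant genes higher in 3 of 3 libraries. The kallisto-format tables gave 0.09 ± 0.24 for kappa, with library 3 at -0.11, and -0.83 ± 0.15 for heavy. The beta receptor difference was larger than that of kappa by 3.70 ± 0.52, than that of heavy by 4.52 ± 0.56 and than that of lambda by 2.59 ± 0.43, each in 3 of 3 libraries (exact sign-flip p = 0.25, the smallest possible; adjusted over 6 comparisons, 0.25). The delta difference minus that of kappa was -5.21 ± 0.17, below 0 in 3 of 3 libraries.

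Joining segments could be described only from the authors' kallisto-format tables, which give their short transcripts an effective length of 8.18 to 21.4 bases, so estimated counts and not levels per length are given. Beta J segments held 436, 481 and 854 estimated counts in libraries 1, 2 and 3, which was 98.4%, 98.6% and 89.3% of all J counts. The beta V genes held 22, 34 and 74 in the same tables and the beta constant genes 2092, 2229 and 3329. Not scaled by length, J counts were higher than V counts and lower than constant counts in every library. The order of J and constant genes depends on that scale, since in TPM the beta J segments exceeded the beta constant genes. The 51 alpha J genes together had 7, 6 and 61, the 2 delta J genes 0, 1 and 33, and the 4 gamma J genes 0, 0 and 5.

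Of the beta J segments, those of the first cluster, which lie before Trbc1, held 85.3% (95% Wilson interval 81.7 to 88.3), 87.7% (84.5 to 90.4) and 89.0% (86.7 to 90.9) of the beta J counts. Trbj1-1, the most counted, had 46, 205 and 141. Trbj1-3 had 84, 60 and 194, Trbj1-7 had 111, 39 and 132, Trbj1-2 had 31, 94 and 149, and Trbj1-4 had 81, 24 and 78. The order of these 5 differed between libraries, and their ranges overlap. In the second cluster the highest was Trbj2-1, with 12, 36 and 25. Trbj1-7, in which the motif above was not found, lay within the range of the other 4 in libraries 2 and 3 and above them in library 1. The D segments Trbd1, Trbd2, Trdd1 and Trdd2, of 10 to 16 bases, had no estimated count.

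**Figure D4:**
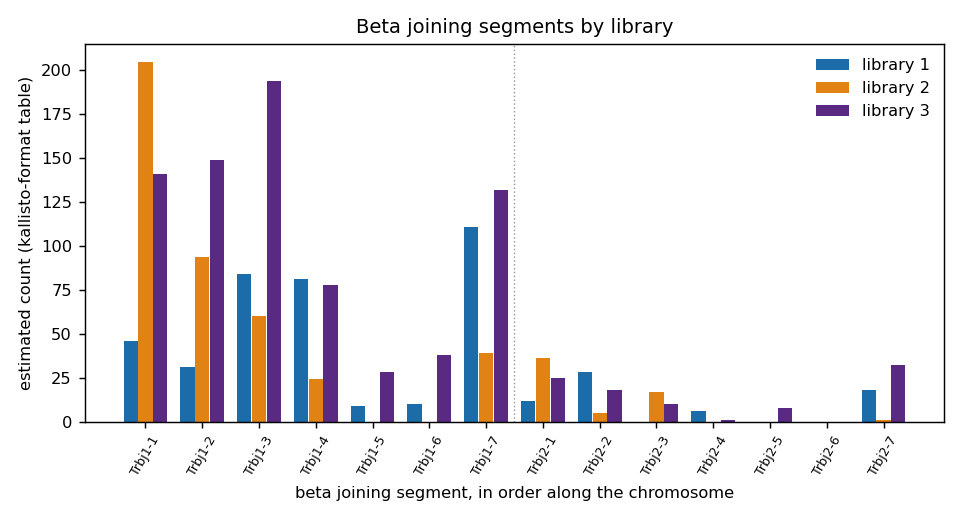
Estimated counts of the beta joining segments in libraries 1, 2 and 3, in order along the chromosome, from the kallisto-format tables; the dotted line divides the cluster before Trbc1 from the cluster before Trbc2. Bars of the first cluster reach 205 in library 2 and 194 in library 3, and none of the second cluster exceeds 36.

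The kallisto-format tables gave more counts to some receptor genes than the gene tables did. For protein-coding genes with 100 or more counts, the median ratio of the 2 was 1.31, 1.24 and 1.26. It was 1.93, 1.56 and 1.77 for Trbc1 and 5.12, 3.51 and 3.66 for Trdv2-2, beyond the 95th percentile of those genes (1.76, 1.62 and 1.64) in 2 of 3 libraries for Trbc1 and in 3 of 3 for Trdv2-2. Trdv4 (1.50, 1.49 and 1.39) and Trdc (1.20, 1.36 and 1.39) lay below that percentile. The level of Trdv2-2 therefore depends on the table.

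The CD3 chains, which carry the receptor to the surface and signal for it, were unequal. Cd247, the zeta chain, had 4.51, 5.71 and 15.11 TPM (edgeR adjusted p = 4.12e-07), and Cd3g had 1.49, 2.11 and 3.61 TPM (edgeR adjusted p = 0.00821); both lay above 1 TPM. Cd3d, at 0.31, 0.32 and 0.61 TPM, and Cd3e, at 0.08, 0.03 and 0.16 TPM, had every value below 1 TPM. Neither gene passed the test in either direction (edgeR adjusted p = 0.176 and 0.165). Ptcra, the alpha-like chain of developing T cells, had 5 counts in library 1 and none elsewhere. By the test, the CD3 and pre-receptor list thus had 2 of 5 members above 1 TPM and 0 below. Of the rest, 2 were on neither side and 1 was not tested. The share above was 43.2% over all genes tested.

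Of 16 genes for proximal receptor signalling, 13 lay above 1 TPM, 1 below (Themis) and 2 on neither side, and the median was 4.33, 3.18 and 9.96 TPM. The kinases Syk (29.9 TPM ± 3.08, SD, n = 3) and Fyn (29.4 ± 9.27) had the highest means, followed by the kinase Lck (23.8 ± 16.4), which phosphorylates CD3 chains in T cells. Without library 3 the mean of Lck was 14.49 TPM, below the 20.54 TPM of the adaptor Lcp2. Several of these genes also act in myeloid, NK or B cells. Of 8 co-receptor and co-stimulation genes, Cd28 (2.46 TPM ± 0.34, SD, n = 3) lay above 1 TPM, Cd4 and Icos below and 5 on neither side; Cd8a had 66, 2 and 89 counts. Of 12 genes of V(D)J recombination, 5 lay above 1 TPM, near the 43.2% of all genes tested, and they were general repair or chromatin factors led by Hmgb1 (60.9 TPM ± 9.26, SD, n = 3). Rag1, at 0.09, 0.03 and 0.01 TPM, was 1 of 2 below, Rag2 had no counts, and Dntt, which adds bases at the joints, had 5 counts in library 3 alone. Of 12 T cell transcription factors, 4 lay above 1 TPM (Zbtb7b, Tbx21, Zbtb16 and Runx3), 1 below (Bcl11b) and 6 on neither side, and 1 was not tested. Beside the counts of these lists, 43.2% of all genes tested lay above 1 TPM and 6.36% below. Those shares leave out genes not tested.

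Library 3 held the highest level of several receptor genes and of all NK markers. Relative to the mean of libraries 1 and 2, library 3 was 4.21 times higher for Trdv4, 4.04 for Trdc, 2.83 for Trbc1, 2.82 for Trdv2-2, 1.71 for Trac and 1.19 for Trbc2. The ratio was 1.21 for the median of 8298 protein-coding genes with a mean of 1 TPM or more, so Trbc2 was close to it. The median over the 14 NK markers was 3.25, with a range of 2.30 to 4.10, and Ncr1, an NK receptor, had 132.83 TPM in library 3 against 39.79 in library 2. It was 1.97 over the 16 T cell markers, which ranged from 0.456 for Ccr7 to 5.82 for Cd5; 12 of 16 were highest in library 3, and Cd5 and Cd8b1 were at 0 in library 2. It was 0.798 over the monocyte markers. Of 8 genes typical of gamma-delta T cells, Sox13 and Il23r were at 0 in all 3 libraries and 2 lay above 1 TPM (Blk and Zbtb16). Of the others, 4 were on neither side, and Sox13 and Il23r were not tested. The share above was 43.2% over all genes tested, and the list summed to 5.61, 4.92 and 6.96 TPM. Platelet markers were also highest in library 3, for 8 of 8, and T cell transcription factors for 10 of 12, with a median ratio of 3.16. Between libraries 1 and 2, Trdv4, Trdc and Trdv2-2 were lower in library 2 and Trbc1 was higher. The NK markers had a median of 28.4 and 28.6 TPM and a sum of 854 and 739 TPM in libraries 1 and 2. The part of these other cells in the receptor levels was not tested.

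**Figure D5:**
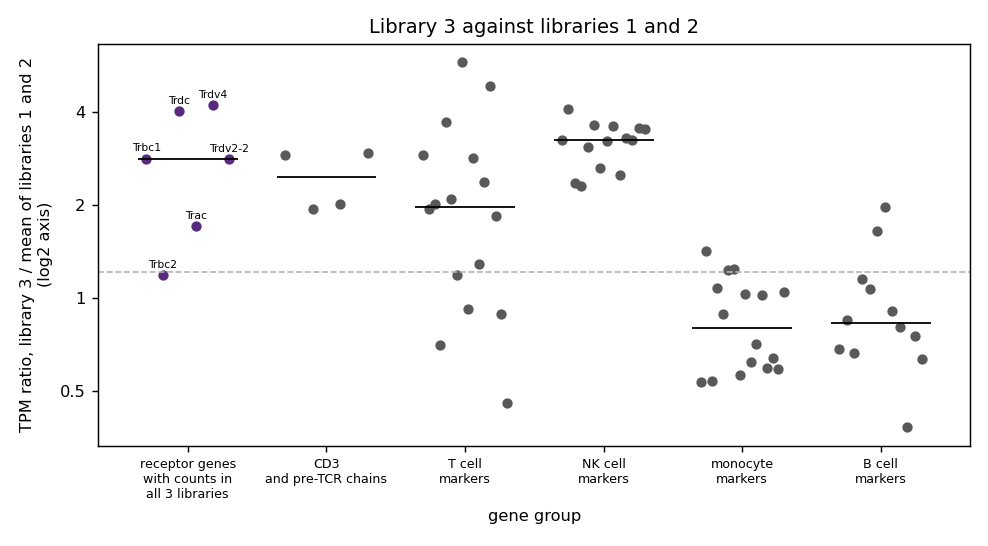
TPM in library 3 divided by the mean of libraries 1 and 2 (log2 axis) for the 6 receptor genes with counts in all 3 libraries and for 5 gene lists; points are genes, bars the median of the points shown, and the dashed line the median protein-coding gene, 1.21. Trdv4 and Trdc lie at 4.21 and 4.04, Trbc2 lies on the line, and Ptcra, with no count in libraries 2 and 3, is not drawn.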

How the data were processed

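Per the labels, rRNA-depleted total RNA was made into libraries with ScriptSeq and analysed on mm10, with GENCODE M21 and M4 per the deposited notes; no source used here names the aligner or quantifier (not given in the sources). The deposited gene tables hold expected counts (the authors' estimated number of reads) and TPM, which the authors scaled over every row; the deposited kallisto-format tables hold an estimated count and TPM per transcript, summed here per gene. Rows that name no gene held at most 0.000571% of counts and were not tested.

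Expected counts were rounded and fitted with edgeR 4.0.16 (R 4.3.3; quasi-likelihood, intercept only, offset the log count that 1 TPM stands for), two-sided against 1 TPM, for the 17664 genes whose counts summed to at least 10, with Benjamini-Hochberg adjustment at 0.05. Tested on simulated data for these 17664 genes, with a coefficient of variation of 0.788, the fit called 2.35% of genes set at 1 TPM. It recovered 30% of those set at 2 TPM, 75% of those at 4 TPM, 18% of those at 0.5 TPM and 64% of those at 0.25 TPM. The set levels were given to genes drawn from all those tested, so the rates do not describe the short receptor genes. Constant minus variable is the difference of log2(summed TPM + 0.1) within a library, pseudogenes left out; V genes usable by alpha and delta were counted with alpha, as were 2 clone-named V genes of that locus. A count of 0 allows 3 counts; limits and intervals cover counting error only, since PCR duplicates cannot be told apart. Alternatives used DESeq2 1.42.0 and limma 3.58.1. Named genes were all C and D genes, up to 12 V genes by mean TPM with 10 or more counts, 6 J genes and 3 pseudogenes by count (all at 0 in the gene tables, so J genes are described from the kallisto-format tables, chosen after their values were seen), the CD3 chains, Rag1, Rag2 and Dntt, and the highest members of 13 lists (128 genes, some in several lists). Members and lists were chosen with earlier results of these data known.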

Additional observations from a re-analysis of the deposited data

How the results depend on the processing

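The mean constant minus variable difference kept its direction in alpha, beta, delta and over all chains under every alternative that could be run. Adding the V pseudogenes, all at 0 counts, could not change the difference. In alpha, 1.76, it was 1.04 without library 1, 2.41 without library 3, 3.04 with a pseudocount of 0.01, 0.52 with one of 1, 2.55 from counts per full length and 0.69 ± 2.61 in the kallisto-format tables, where library 2 turned to -1.63. Gamma, at 0.06, turned to -0.06 with a pseudocount of 1 and to -0.95 under GENCODE M4, and ranged from -0.48 (without library 2) to 0.35 with 1 library left out. The number of receptor genes above 1 TPM, 4, was 3 to 4 with 1 library left out and 16 of 35 tested in the kallisto-format tables (against 4 of 14), 12 of them J genes of short effective length; 10153 of all genes lay above there, against 7639. The number below, 0, was 0 to 1 with 1 library left out and 8 with limma on log2(TPM + 0.1); the cause was not tested. From the kallisto-format tables the summed constant level was 1.72 TPM in alpha, 68.7 in beta, 1.78 in delta and 0.483 in gamma, against 0.823, 28.5, 0.947 and 0.270. The count of all genes below 1 TPM, 1124, was 256 without library 1, 381 without library 2, 176 against 0.5 TPM, 3398 against 2 TPM, 1806 in the kallisto-format tables, 226 with DESeq2, 6290 with limma and 1 on the protein-coding scale. Trdc is not in M4 under its identifier, so delta has no M4 value and the M4 sum over all chains lacks it. With V genes of 10 or more counts only, alpha has none left. No paired analysis was possible because the series holds 1 group. Depth limits most V genes: alpha, beta and gamma variable sums rest on at most 47 counts a library.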
